A study of Mus musculus with 8 samples.

Results

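Transcripts of 5 subunits of the phagocyte NADPH oxidase, Cybb, Cyba, Ncf1, Ncf4 and Rac2, were followed in macrophages of mouse skin wounds. The genes were taken by symbol from the deposited count table, and all 5 were found among its 55414 genes. All 5 passed the filter on low counts that left 15371 genes for testing. The 3 day 1 libraries (a to c) and 5 day 3 libraries (a to e) were made from total RNA of cells bound by anti-F4/80 magnetic beads, F4/80 being a surface protein of mouse macrophages. Every pool held 6 wounds from 3 mice and was taken either 1 day or 3 days after injury, with no further treatment in the labels. The labels give no strain, sex, age or genotype. They also leave unsaid if pools shared mice, and every p-value therefore rests on pool-to-pool spread alone.

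The phagocyte NADPH oxidase moves electrons from NADPH across the membrane to oxygen and so makes superoxide, the starting point of the oxidative burst of neutrophils and macrophages. Cybb encodes gp91phox, the catalytic membrane subunit, and Cyba encodes p22phox, its membrane partner, with which it forms flavocytochrome b558. On activation cytosolic proteins, p47phox (Ncf1) and p40phox (Ncf4) among them, join the membrane subunits together with a Rac GTPase, Rac2 or Rac1. Loss of the oxidase causes chronic granulomatous disease, in which bacteria and fungi are killed poorly and inflammation is prolonged.

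Totals ran from 41566151 to 60289310 counts per library. Adgre1, which encodes F4/80, was at 686 to 1180 CPM (the gene's count scaled to a common library size, with TMM factors for composition). None of the 10 macrophage markers was at 0 in any library. Together they summed to between 17591 and 20324 CPM at day 1 and to between 29183 and 36213 CPM at day 3. Most of this gap was Lyz2, the lysozyme gene that neutrophils and monocytes also express, and without it the other 9 summed to between 10460 and 11453 CPM at day 1 and to between 11123 and 13541 CPM at day 3, which overlap. Fcgr1 was at 715 to 975 CPM at day 1 and at 343 to 487 CPM at day 3. In day 1 c Csf1r was at 636 CPM, against 168 to 333 CPM in the other libraries. Cd68 was at 1783 CPM in day 1 c, against 3303 to 4169 CPM in the others. Neutrophils carry the same oxidase, and their 17 markers gave sums of 1301, 3408 and 5288 CPM for the day 1 pools a to c. Day 3 b reached 5338 CPM, and the remaining day 3 pools lay at 752 to 1055 CPM. Of those markers Ly6g, Camp, Ngp, Ltf, Elane and Mpo were at 0 in at least 1 library. Not every marker followed the sum over day 1 a to c. S100a8 was at 258, 910 and 1519 CPM there, Mmp8 at 186, 199 and 177 CPM, and Ltf at 17.0, 16.0 and 2.83 CPM. The 7 monocyte markers summed to between 4307 and 5745 CPM at day 1 and to between 2942 and 4166 CPM at day 3. Because these are pools of cells, fewer cells of a type and less RNA per cell cannot be told apart.

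The membrane subunits had their higher means at day 3, but neither passed the test. Cybb (ENSMUSG00000015340, GRCm39 chromosome X, 9301491 to 9354010, minus strand) stood at 816, 979 and 372 CPM in the day 1 pools a to c. At day 3 it was at 1014, 1332, 1599, 1357 and 1257 CPM in a to e. The 5 day 3 libraries lay above the 3 day 1 libraries, day 3 a by little over day 1 b, and day 1 c stood lowest. The means were 722 ± 315 and 1312 ± 210 CPM (SD, n = 3 and 5). On the log2 scale day 3 exceeded day 1 by 0.86 ± 0.30 (SE; 95% interval 0.19 to 1.52). The adjusted p was 0.185 in the edgeR quasi-likelihood test.

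Cyba (ENSMUSG00000006519, chromosome 8, 123151515 to 123159669, minus strand) was at 2160, 2508 and 1486 CPM at day 1. The day 3 libraries were at 2824, 2815, 2460, 2858 and 2634 CPM. Day 1 b fell between day 3 c and the rest of day 3, so the ranges of the days overlapped. The means were 2051 ± 519 and 2718 ± 168 CPM (n = 3 and 5), with a log2 fold change of 0.40 ± 0.19 (95% interval -0.015 to 0.82; edgeR adjusted p = 0.339).

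Of the cytosolic subunits, Ncf4 had its higher mean at day 3, whereas Ncf1 had nearly equal means. Ncf4 (ENSMUSG00000071715, chromosome 15, 78129001 to 78146780, plus strand) encodes p40phox, which binds the phosphoinositide of phagosome membranes. The day 1 pools held 265, 348 and 237 CPM and the day 3 pools 305, 519, 433, 368 and 465 CPM. Only day 3 a lay inside the day 1 range. The log2 fold change was 0.56 ± 0.21 (95% interval 0.080 to 1.04; edgeR adjusted p = 0.237).

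Ncf1 (ENSMUSG00000015950, chromosome 5, 134248907 to 134258479, minus strand) encodes p47phox, the organiser that is phosphorylated when phagocytes are stimulated. Its day 1 values were 42.9, 75.6 and 125 CPM, and its day 3 values 72.1, 82.4, 84.6, 67.6 and 86.8 CPM. The day 1 libraries enclosed the whole day 3 range. The means were 81.1 ± 41.2 and 78.7 ± 8.38 CPM, and the log2 fold change was -0.047 ± 0.30 (edgeR adjusted p = 0.964), with a 95% interval of -0.71 to 0.62 that leaves room for a shift in either direction. Without day 1 c the log2 fold change was 0.40 ± 0.24, and without day 1 a it was -0.38 ± 0.23. Ncf1 shares 408 of its 3663 exon bases with Gtf2ird2 on the other strand, and without strand the reads of these bases cannot be told apart.

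The 250 bases before the transcription start are shown for the membrane subunits and Ncf1, the members with an entry among the RefSeq promoters of GRCm38.p6 (3 of 5), because they include the largest fold change among the 5 and the one nearest to 0. The transcription factors PU.1 and the interferon regulatory factors IRF1 and IRF8 are known to act at the gene for gp91phox. Capitals mark GAAANNGAAA, a form of the interferon-stimulated response element, or its reverse complement. The sequences read 5′ to 3′ on the minus strand, on which all 3 genes lie, from chrX:9469325-9469574, chr8:122432941-122433190 and chr5:134229626-134229875.
Cybb: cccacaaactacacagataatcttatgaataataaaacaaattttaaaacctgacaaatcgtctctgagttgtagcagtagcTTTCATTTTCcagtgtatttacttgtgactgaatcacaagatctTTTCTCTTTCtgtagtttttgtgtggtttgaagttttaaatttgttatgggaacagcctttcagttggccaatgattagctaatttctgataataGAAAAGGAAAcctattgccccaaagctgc
Cyba: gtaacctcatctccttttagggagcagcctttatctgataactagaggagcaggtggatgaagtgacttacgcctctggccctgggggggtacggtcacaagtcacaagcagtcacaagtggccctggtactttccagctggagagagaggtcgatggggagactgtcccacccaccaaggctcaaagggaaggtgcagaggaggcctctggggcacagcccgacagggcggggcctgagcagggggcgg
Ncf1: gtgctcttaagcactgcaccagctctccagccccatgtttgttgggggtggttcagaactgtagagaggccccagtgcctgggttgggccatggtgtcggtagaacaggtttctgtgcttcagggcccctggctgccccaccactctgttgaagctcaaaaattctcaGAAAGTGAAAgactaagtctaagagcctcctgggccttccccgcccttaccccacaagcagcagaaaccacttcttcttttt

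GAAANNGAAA was found 3 times before Cybb, once before Ncf1 and not before Cyba, and 2.98% of 32851 promoter windows of this length hold it on either strand. The ETS core GGAA, bound by PU.1 and its relatives, was found 3, 2 and 1 times before Cybb, Cyba and Ncf1, where 93.4% of windows hold it, and 2 of its matches before Cybb overlap a marked stretch. The longer PU.1 form GAGGAA was in none of the 3 windows, while 23.3% of all hold it. In windows of 300 bases, which reach past the start, it was found for Cybb and not for Cyba or Ncf1, while 28.3% of all hold it. The match lies just inside the Cybb transcript on the opposite strand, where the first 30 bases (chrX:9469295-9469324) are shown with the match in capitals.
Cybb: tgttttcatTTCCTCatcagaagaagaagc

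Rac2 (ENSMUSG00000033220, chromosome 15, 78443367 to 78456983, minus strand), the GTPase subunit, had its lower mean at day 3. The day 1 pools held 221, 234 and 332 CPM, and the day 3 pools 165, 228, 226, 185 and 219 CPM. The ranges overlapped, and day 1 c was the highest library. The log2 fold change was -0.36 ± 0.19 (95% interval -0.78 to 0.060; edgeR adjusted p = 0.402).

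**Figure D1:**
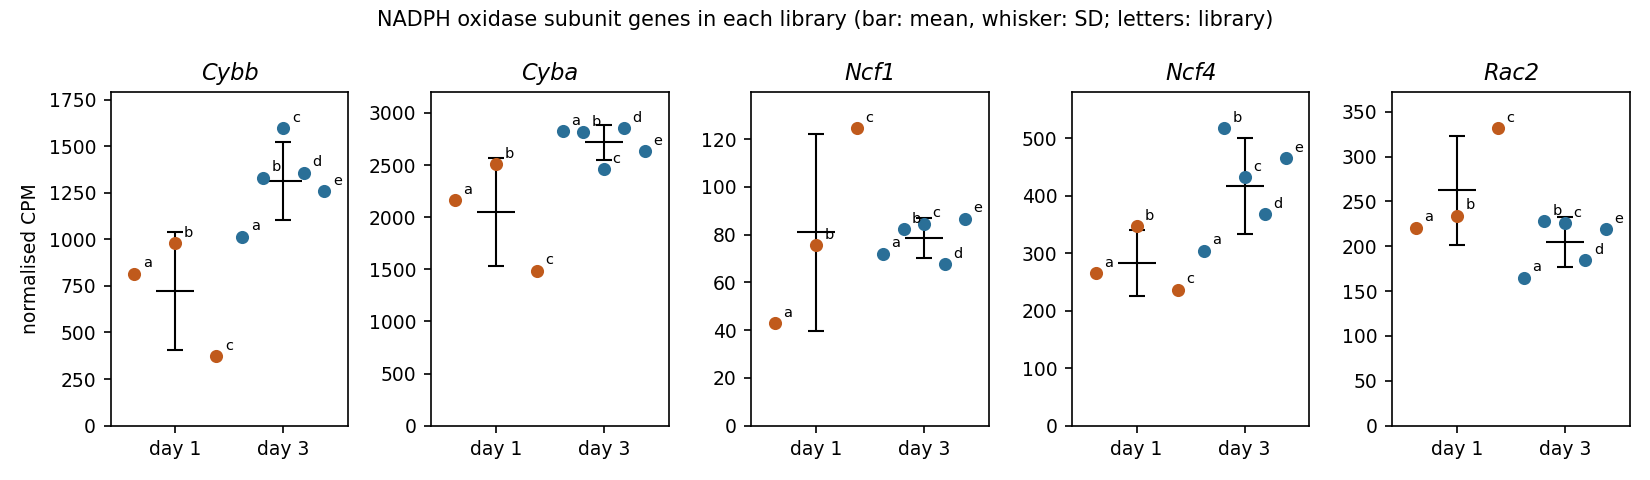
Normalised CPM (vertical axes, from 0) of the 5 subunit genes in each library at day 1 and day 3, with library letters, the mean (bar) and SD (whisker). Day 1 c is the lowest library for Cybb, Cyba and Ncf4 and the highest for Ncf1 and Rac2.

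By edgeR 0 of the 5 subunit genes were called at an adjusted p under 0.05, where 0.0130% of all tested genes were. Before adjustment, Cybb and Ncf4 were under 0.05 with day 3 higher, as were 5.16% of all tested genes, and 0 of the 5 were under it with day 3 lower, beside 10.5% of all tested genes. Ranges that did not overlap, with day 3 higher, were found for Cybb alone, beside 5.35% of all tested genes. DESeq2 called 0 of the 5 as well, with Cybb at an adjusted p of 0.0587, beside 6.95% of the genes to which it gave an adjusted p. Limma voom called 0, with Cybb at 0.0843, beside 5.37% of genes. With no filter on low counts edgeR called Cybb (adjusted p = 0.000517), beside 3.50% of the 38518 genes then tested. That fit gave a gene's own spread between pools little weight, with an SE for Cybb of 0.19 in place of 0.30. The median log2 fold change of the 5 was 0.40, and that of all tested genes -0.17.

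Per exon length the subunits were present at very different levels, with Cyba far above the rest. In CPM per kilobase of exon, Cyba was at 1974 ± 500 at day 1 and 2616 ± 162 at day 3 (SD, n = 3 and 5). Cybb was at 124 ± 54.2 and 226 ± 36.2, and Ncf4 at 140 ± 28.6 and 207 ± 41.3. Cybb and Ncf4 could not be ordered, since their libraries overlapped on both days. Rac2 followed with 84.6 ± 19.6 and 65.9 ± 9.08 CPM per kilobase, overlapping Cybb at day 1 and below it in all libraries at day 3. Ncf1 was the lowest with 22.1 ± 11.3 and 21.5 ± 2.29, and all of its libraries lay below those of Rac2. The lengths join the exons of all annotated transcripts, so levels of a gene with long alternative exons are understated.

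**Figure D2:**
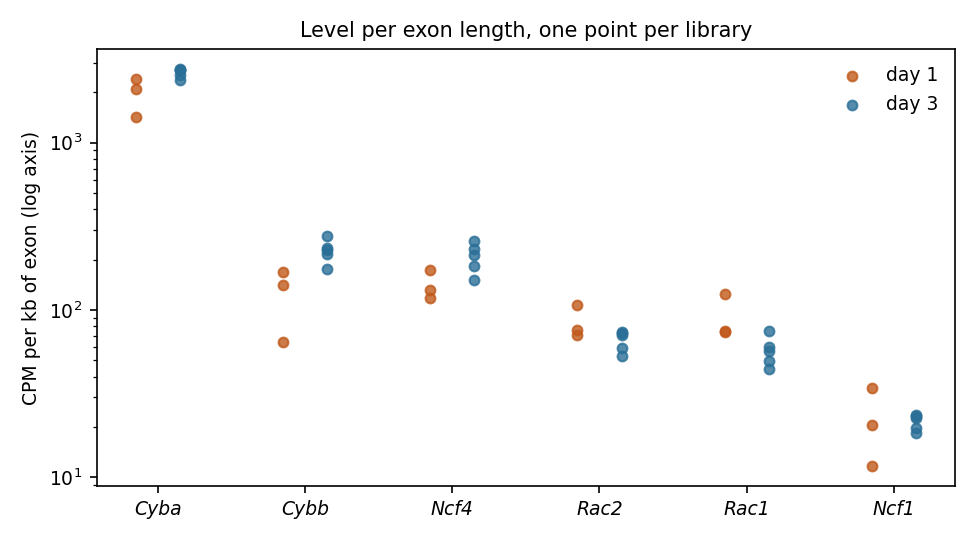
CPM per kilobase of exon on a log axis for the subunit genes and Rac1, with 1 point per library and the days in separate colours. Cyba lies at the top and Ncf1 at the bottom, while the points of Cybb and Ncf4 overlap on both days.

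Cybb was lowest relative to both Cyba and Ncf1 in day 1 c. Per exon length, Cybb stood to Cyba at 0.0676, 0.0699 and 0.0447 in day 1 a to c and at 0.0642, 0.0846, 0.116, 0.0850 and 0.0854 in day 3 a to e. Cybb stood to Ncf1 at 12.0, 8.17 and 1.88 in the day 1 pools and at 8.87, 10.2, 11.9, 12.7 and 9.14 in those of day 3. As a spread within a day, the coefficient of variation at day 1 and day 3 was 50.9% and 10.7% for Ncf1, 43.5% and 16.0% for Cybb, 25.3% and 6.20% for Cyba, and 23.2% and 13.8% for Rac2. Ncf4, at 20.4% on day 1, had nearly the same value at day 3. The medians over all tested genes were 61.5% and 45.2%, and a difference in spread between 3 and 5 libraries was not tested. By mean CPM the subunits ranked from 50 (Cyba) to 1937 (Ncf1) of 15371 genes. These medians therefore come mostly from less abundant genes and are no like comparison.

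Leaving out day 1 c moved the log2 fold change the most for Cybb, Cyba, Ncf1 and Rac2, while for Ncf4 leaving out day 1 b did (0.73). Day 1 c had the lowest Cybb, Cyba and Ncf4 and the highest Ncf1 and Rac2 of all 8 libraries. Without it the log2 fold change was 0.54 ± 0.18 for Cybb, 0.21 ± 0.13 for Cyba, 0.43 ± 0.21 for Ncf4 and -0.16 ± 0.16 for Rac2, and 0 of the 5 were called (lowest edgeR adjusted p = 0.164, for Cybb). With the library of each day that had the most neutrophil markers left out (day 1 c and day 3 b), the values were 0.53 ± 0.18 for Cybb, 0.21 ± 0.14 for Cyba, 0.38 ± 0.26 for Ncf1, 0.35 ± 0.20 for Ncf4 and -0.20 ± 0.15 for Rac2, and again 0 were called. Day 3 b, with the highest neutrophil marker sum, was the highest of day 3 for Ncf4 and Rac2, though by little for Rac2, and in mid-range for Cybb, Cyba and Ncf1. The part of neutrophil RNA in these values was not tested.

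**Figure D3:**
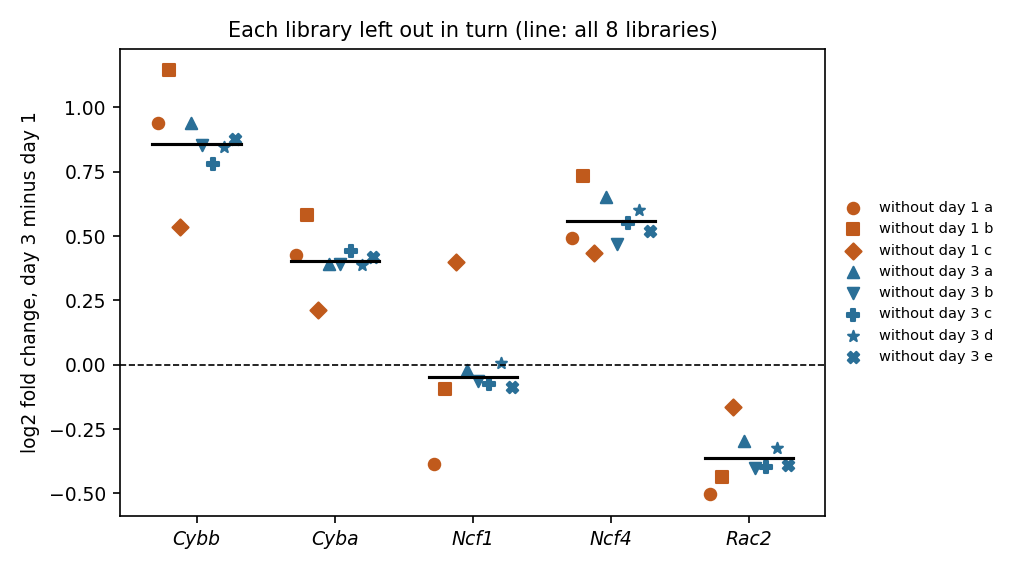
Log2 fold change (day 3 minus day 1) of each subunit gene with 1 library left out in turn (symbols) and with all 8 (black line). Leaving out day 1 c brings Cybb to 0.54 and Ncf1 to 0.40, and leaving out day 1 a brings Ncf1 to -0.38.

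Day 1 c also differed from day 1 a and b with the base composition of the transcripts. Over 3879 abundant genes (average log2 CPM 5 or more), its median deviation from the other day 1 libraries was -0.43 on the log2 scale in the fifth of genes with the lowest GC content and 0.30 in the fifth with the highest. In the day 3 libraries the same medians lay between -0.11 and 0.12. The GC content of the longest transcript was 42.4% for Cybb, 52.8% for Rac2, 53.4% for Ncf1, 55.7% for Ncf4 and 59.3% for Cyba, where the median of these genes was 47.4%. With the genes in 5 equal groups by GC content, the day 1 c median was -0.33 for the group that held Cybb. It was 0.027 for the group of Rac2 and 0.30 for the group of Ncf1, Ncf4 and Cyba. Cybb and Ncf1 thus deviated in day 1 c in the direction of their groups, and Cyba and Ncf4 in the other direction. Rac2 was high in day 1 c, while the median of its group hardly moved. However, Rac2 and Ncf1 lay close to each other, on either side of the cut at 53.3% GC. Their different groups therefore do not set them apart in GC content. Cybb lay just above the cut at 42.3%, next to the group with a median of -0.43. The size of each subunit gene's deviation was not compared with these medians. The share of even values among counts of 2 to 20 was 73.0% in day 1 c and between 81.3% and 86.0% in the other libraries. The part of base composition in the subunit values was not tested.

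**Figure D4:**
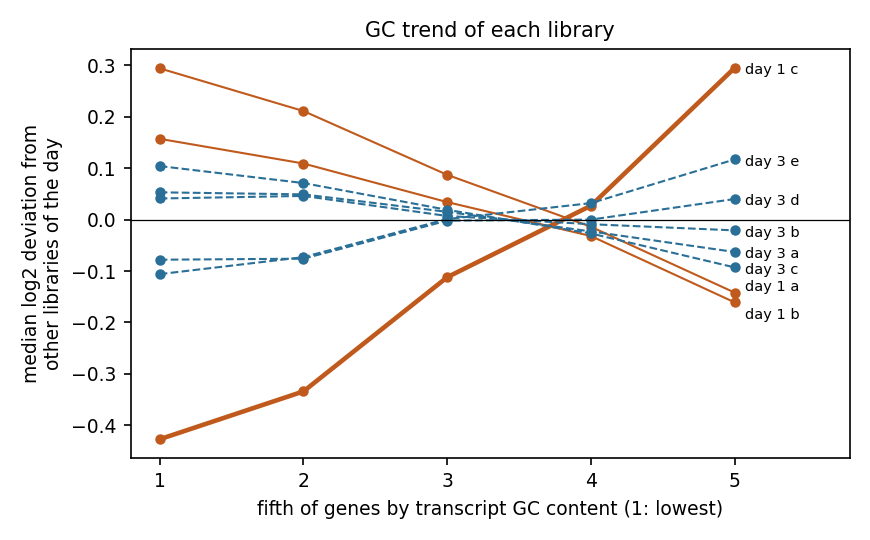
Median log2 deviation of each library from the other libraries of its day, over 5 equal groups of genes ordered by GC content of the transcript. Day 1 c runs from -0.43 to 0.30, and day 1 a and b run the other way and each of these is compared with a set that includes day 1 c.

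Of the factors whose motifs were searched before the subunit genes, Spi1, which encodes PU.1, was at 312 ± 132 CPM at day 1 and 199 ± 58.0 CPM at day 3 (SD, n = 3 and 5; -0.65 ± 0.30 on the log2 scale, edgeR adjusted p = 0.333), with its highest value, 463 CPM, in day 1 c. Irf8 was at 85.6 to 156 CPM at day 1 and 81.7 to 126 CPM at day 3. Irf1, named after its values were seen, was at 49.7, 43.7 and 127 CPM at day 1 and at 25.4, 32.9, 45.6, 40.5 and 34.1 CPM at day 3 (-1.04 ± 0.35 on the log2 scale, edgeR adjusted p = 0.176). Of the 9 transcription factors listed for the oxidase promoters, 8 were tested and 0 were called by edgeR, beside 0.0130% of all tested genes. The log2 fold change was above 0 for 1 and below 0 for 7, where 42.9% of all tested genes were above 0. At an unadjusted edgeR p under 0.05, 1 was higher and 3 were lower (Irf1, Cebpb and Cebpe), beside 5.16% and 10.5% of all tested genes. The list median was -0.51, beside -0.17 for all tested genes. Day 1 c was the highest library for Spi1, Irf1, Irf8, Cux1 and Cebpb, but not for Elf1, Cebpa and Cebpe. Cebpb, whose protein drives inflammatory genes in myeloid cells, was at 1736 CPM in day 1 c and between 27.3 and 35.7 CPM in the other 7 libraries. Day 1 a and b lay inside the day 3 range, so the log2 fold change of Cebpb (-4.20 ± 1.09, edgeR adjusted p = 0.0881) rested on day 1 c. Its GC content was 67.2%, in the fifth of genes whose median deviation in day 1 c was 0.30 on the log2 scale. The part of base composition in the Cebpb value was not tested. Cebpa, at 23.6 ± 11.8 and 39.2 ± 4.26 CPM, was the factor with the highest log2 fold change (0.73 ± 0.31, edgeR adjusted p = 0.298).

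None of the assembly partners of the oxidase was called by edgeR, beside 0.0130% of all tested genes. Of 10 tested, 1 was higher and 3 were lower at an unadjusted p under 0.05, beside 5.16% and 10.5% of all tested genes, and the list median was -0.10, beside -0.17 for all tested genes. Cybc1, which encodes the chaperone Eros needed for gp91phox protein, was at 65.5 ± 20.1 and 63.5 ± 15.9 CPM. Rap1a, encoding the small GTPase found bound to flavocytochrome b558, was at 184 ± 6.93 and 166 ± 25.5 CPM. Its relative Rap1b was at 907 ± 503 and 464 ± 70.1 CPM (-0.97 ± 0.29 on the log2 scale, edgeR adjusted p = 0.134). DESeq2 called Rap1b with an adjusted p of 0.0326, beside 6.95% of the genes to which it gave an adjusted p. All 5 day 3 libraries were below the day 1 libraries for Rap1b, as for 8.73% of all tested genes, and its highest value was 1485 CPM in day 1 c.

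Neither inhibitor that holds Rac in the cytosol was called by edgeR. Arhgdib, the RhoGDI of blood cells and the most abundant partner per exon length, was at 654 ± 72.1 and 861 ± 103 CPM (0.39 ± 0.16, edgeR adjusted p = 0.260). Arhgdia was at 112, 93.3 and 710 CPM in day 1 a to c and at 69.5 ± 34.7 CPM at day 3 (-2.14 ± 0.66, edgeR adjusted p = 0.141), so that day 1 c alone was above 118 CPM. The proton channel gene Hvcn1, whose product offsets the charge moved by the oxidase, was at 6.89 ± 2.45 and 7.91 ± 3.17 CPM, and it shares 1574 of its 3563 exon bases with Tctn1.

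Rac1, the GTPase that can take the place of Rac2, was at 337, 332 and 557 CPM at day 1 and at 200, 222, 254, 271 and 336 CPM at day 3. The log2 fold change was -0.67 ± 0.23 (edgeR adjusted p = 0.179), and day 3 e reached the lower day 1 libraries. The Rac2 share of Rac1 and Rac2, per exon length, was 48.7%, 50.5% and 46.3% in the day 1 pools, against 54.4%, 59.8%, 56.3%, 49.7% and 48.6% in those of day 3. The ranges overlapped, and the means of 48.5% ± 2.10 and 53.8% ± 4.65 did not differ detectably (p = 0.179 in a two-sided exact permutation test, whose smallest possible p is 0.0357). Rac1 shares 2309 of its 4496 exon bases with Daglb, and with these bases taken out of its length the shares were 31.5% ± 1.81 and 36.2% ± 4.33. Rac3 stayed at or below 5.26 CPM in every library.

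The genes listed upstream of the oxidase include exchange factors that load Rac with GTP and kinases that phosphorylate p47phox. By edgeR 0 of the 25 tested were called, beside 0.0130% of all tested genes. At an unadjusted edgeR p under 0.05, 2 were higher and 6 lower, beside 5.16% and 10.5% of all tested genes. The list median was -0.17. Vav1 was at 141 ± 23.4 and 93.6 ± 16.6 CPM (-0.59 ± 0.20, edgeR adjusted p = 0.168). Prkcd, the protein kinase C delta gene, was at 145 ± 9.63 and 117 ± 9.27 CPM (-0.32 ± 0.14, edgeR adjusted p = 0.317). For both genes every day 3 library was below every day 1 library, as for 8.73% of all tested genes. Dock2, Prex1 and Pik3cg were at 104 ± 41.8, 22.4 ± 5.32 and 34.0 ± 9.46 CPM at day 1 and at 108 ± 25.4, 17.2 ± 8.65 and 39.0 ± 9.70 CPM at day 3. Pak2, with Vav1 the most abundant of the list per exon length, was at 170 ± 39.8 and 165 ± 13.2 CPM. The highest fold change belonged to Pik3c3, whose product makes the lipid that p40phox binds, with 13.8 ± 7.71 and 30.3 ± 7.34 CPM (1.13 ± 0.43, edgeR adjusted p = 0.241), and the lowest to Vav2, with means of 5.59 and 2.72 CPM.

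Other members of the NADPH oxidase family were nearly absent, as 7 of 9 listed genes did not pass the filter on low counts and had at most 71 counts in any library. Nox4 was at 2.08 CPM in day 1 a and at 0.449 CPM or less in the others. Noxo1 was at 0 in the 3 day 1 libraries and in day 3 a and e, and between 0.499 and 1.20 CPM in day 3 b, c and d.

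**Figure D5:**
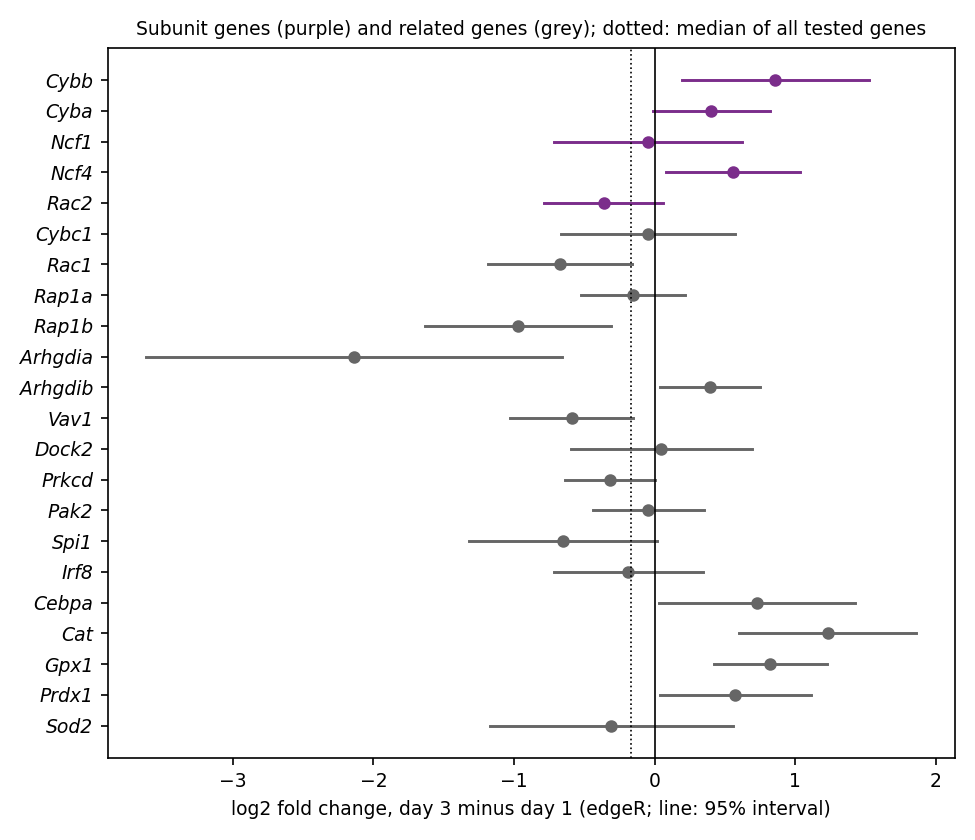
Log2 fold change (day 3 minus day 1) with its 95% interval for the 5 subunit genes (purple) and related genes (grey), with a dotted line at the median of all tested genes. The intervals of Cybb and Ncf4 lie above 0, and those of Cyba, Ncf1 and Rac2 include 0.

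Among enzymes that handle superoxide and peroxide, 0 of 12 tested were called by edgeR, beside 0.0130% of all tested genes. The list median was 0.043. However, 3 had an edgeR adjusted p under 0.1, as did 4.78% of all tested genes. Gpx1, a glutathione peroxidase and the most abundant of the list per exon length, was at 1207, 1546 and 1157 CPM at day 1 and at 2315, 1878, 2142, 2515 and 2692 CPM at day 3 (0.82 ± 0.18, edgeR adjusted p = 0.0829). Cat, the catalase gene, was at 21.4, 43.6 and 36.4 CPM and at 61.6, 63.1, 87.6, 84.8 and 99.9 CPM (1.23 ± 0.28, edgeR adjusted p = 0.0829). In both genes all day 3 libraries lay above the day 1 libraries, as for 5.35% of all tested genes. Gpx1 was called with the stricter filter (edgeR adjusted p = 0.0491, beside 1.79% of 8142 genes), and DESeq2 and limma voom called Gpx1 and Cat higher and Prdx6 lower, beside 6.95% and 5.37% of genes called by these tools. Prdx6, a peroxiredoxin that was named after its values were seen, was at 902 ± 102 and 476 ± 164 CPM (-0.93 ± 0.25, edgeR adjusted p = 0.0943). In day 3 b, the library with the most neutrophil markers, it was at 760 CPM, against 359 to 453 CPM in the rest of day 3. At day 1 Prdx6 did not follow these markers. It was at 852, 1019 and 834 CPM in a to c, where the neutrophil markers summed to 1301, 3408 and 5288 CPM. The part of neutrophil RNA in the Prdx6 values was not tested. Prdx1 was at 1604 ± 452 and 2393 ± 483 CPM (0.57 ± 0.24, edgeR adjusted p = 0.284).

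Sod2, mitochondrial superoxide dismutase, was at 544 ± 79.7 CPM at day 1 and at 361, 928, 315, 271 and 329 CPM at day 3, so that day 3 b, the library with the most neutrophil markers, was the highest of all 8. Nos2, the inducible nitric oxide synthase gene, was at 0.0501, 4.34 and 37.2 CPM at day 1 and at 2.82 CPM or less at day 3. Mpo, the neutrophil granule enzyme that uses peroxide made downstream of the oxidase, had at most 4 counts in any library.

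The genes most like each subunit gene over the 8 libraries, by Pearson correlation of log2 CPM among 3819 genes, were Lamtor2 (0.976), Klhl9 (0.973) and Tmem170b (0.972) for Cybb. For Cyba they were Dynlt3 (0.982), Creg1 (0.981) and Spp1 (0.974), and for Ncf4 Rnd3 (0.976), Tor1a (0.966) and Zpr1 (0.963). Ncf1 was closest to Ifi30 (0.951), Egr1 (0.944) and Ssr3 (0.943), and Rac2 to Flot1 (0.973), Rnf111 (0.968) and Dnajc3 (0.961). No subunit gene was among the 3 closest of another. These 8 points share the difference between the days and the deviation of day 1 c, and the highest of 3819 values is high by choice.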

How the data were processed

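Bulk RNA of 3 day 1 and 5 day 3 pools was sequenced. Per the labels' protocols wound tissue was digested with collagenases and selected with anti-F4/80 beads. A plan of 6 samples for each time is stated there, of which these 8 were analysed. The authors deposited raw counts per gene, made with featureCounts 1.6.0 on Ensembl release 106 of GRCm39 with no option for strand or read pairs, per the file headers. The submitters' processing notes also list Trimmomatic and DESeq2. No aligner is named in the sources read here. The deposited column names match the sample titles, while the alignments named in the header carry partly other letters. Low counts were mostly even, so both reads of a pair may have been counted.

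Of the table's genes, 94.0% were given a symbol. Genes were filtered with filterByExpr (minimum count 10), scaled with TMM and tested across all genes in edgeR (quasi-likelihood, two-sided), called at 0.05 after Benjamini-Hochberg adjustment. The SE is the log2 fold change divided by the root of F, and 95% intervals use the fit's t distribution. A detection floor of 3 counts and all intervals cover counting error or the spread between pools only. GC content came from the longest GENCODE M21 transcript of each gene, used for composition only. The members and lists were chosen with earlier results of these data known. Named genes were the 5 members, 17 fixed list genes (1 is not reported here), the 2 most abundant members per exon length and the highest and lowest fold change of each list, and for likeness the 3 closest abundant genes (average log2 CPM 5 or more). Alternatives were DESeq2, limma voom, RLE scaling, library totals, other filters, halved counts, a threshold of 0.1, leaving out every library in turn, and blocking on letters a to c. The neutrophil-marker and Rac1-length alternatives and the GC comparison were chosen after seeing the data. Simulated counts served to test each fit. Software was edgeR 4.0.16, DESeq2 1.42.0 and limma 3.58.1 under R 4.3.3, with scipy 1.17.1 and pandas 2.3.3 under Python 3.11.15.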

Additional observations from a re-analysis of the deposited data

Results flagged for a closer look

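Of 45 values examined among the 5 day 3 libraries, 4 had 1 library far from the others by Dixon's criterion, and chance alone gives about 1 in 20. All 4 concerned day 3 b. Sod2 was at 928 CPM there against 271 to 361 CPM elsewhere at day 3. The neutrophil markers summed to 5338 CPM there and to between 752 and 1055 CPM in the others. The dendritic cell markers summed to 156 CPM there and to between 54.8 and 70.2 CPM in the others, and the keratinocyte markers to 27.7 CPM there and to between 0.157 and 4.48 CPM in the others. The 5 subunit genes were not among these 4 values. Prdx6 and Irf1, named after their values were seen, were not among the 45 examined.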

How the results depend on the processing

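The direction was kept for Cybb, Cyba, Ncf4 and Rac2 in all 18 alternatives run for each, and 0 of the 5 subunit genes were called in 18 of the 19 alternatives to the count, a threshold of 0.1 included. With no filter on low counts Cybb was called (log2 fold change 0.87), which made 1 of 5, and Rap1b and Arhgdia were called, 2 partner and regulator genes, where DESeq2 called 1 (Rap1b). In the fit with no filter the SE of Cybb was 0.19, against 0.30 in the main fit. The p-values of the subunit genes there followed a normal rather than a t distribution. A gene's own spread between pools thus had little weight, and the Cybb call is not a stronger result. Why DESeq2 called Rap1b was not tested. Ncf1 turned its sign in 5 of 18 alternatives, without day 1 c or day 3 d, with limma voom (0.032), without the library of each day richest in neutrophil markers (0.38) and with the letters a to c as a replicate block (0.11). With each library left out, log2 fold changes ran from 0.54 to 1.14 for Cybb, 0.21 to 0.58 for Cyba, -0.38 to 0.40 for Ncf1, 0.43 to 0.73 for Ncf4 and -0.50 to -0.16 for Rac2, and the difference in the Rac2 share from 3.72 to 6.52 percentage points. Same-lettered pools of the days deviated together with correlations of 0.086, 0.027 and 0.001, and only pool a of day 1 was closest to its own letter, so the letters were not taken as pairs, and under the block 0 subunit genes were called (Cybb 0.95, adjusted p = 0.540 by edgeR).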
